A study of Mus musculus with 10 samples.

Results

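The chromatin of ILC2s from the large intestine (LI) was compared with that of ILC2s from the pancreas in 4 of the 10 ATAC-seq libraries of the series. They are called LI 1, LI 2, pancreas 1 and pancreas 2 here. ATAC-seq cuts open DNA with the Tn5 transposase, so the number of reads counted at a region reads out how accessible it is. The regions compared were the 49981 of 50039 regions of the count table that held at least 1 count over the 10 libraries, so that no difference between the tissues chose them. Male C57BL/6 mice aged 6 weeks gave all the cells, and the labels name neither a treatment nor a genetic change. Each library held 50000 sorted ILC2s, pooled from 10 mice for LI and from 16 mice for pancreas. In both tissues the gate was Lin-CD45+CD127+ST2+CD25+, so the cells of both were selected for ST2, the IL-33 receptor that *Il1rl1* encodes, and for CD25, which *Il2ra* encodes. LI tissue was shaken in dithiothreitol and EDTA and then digested for longer than pancreas tissue, so tissue and preparation cannot be told apart. The authors call the 2 libraries of a tissue biological duplicates, but neither they nor the labels say that these came from separate pools of mice. The p-values therefore measure the spread between libraries of a tissue, estimated over all 10 libraries, which may be technical. In pooled cells, a region open in more of the cells and a region more open in each cell cannot be told apart.

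Group 2 innate lymphoid cells (ILC2s) are lymphocytes without rearranged antigen receptors that lie in barrier tissues and in solid organs and release IL-5 and IL-13. They depend on the transcription factors GATA3 and RORα, and they respond to alarmins, above all to IL-33 through ST2. In the gut they also meet ligands of the aryl hydrocarbon receptor (AHR), a transcription factor that dietary and microbial compounds switch on and that is known to restrain ILC2s there. Open regions at promoters tend to be shared between tissues, whereas many open regions far from promoters act as enhancers and differ with the tissue.

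The windows below show what the DNA of some called regions looks like, 4 from regions that were more accessible in LI and then 4 from regions that were more accessible in pancreas. They were chosen after the values were seen, for loci described further on, and the *Il1rl1* window was chosen for its motif matches. Not all are the region of largest difference at their locus. Each is the central 300 bases of its region, 5′ to 3′ on the plus strand of the mm10 (GRCm38) genome, and capitals mark matches on either strand to short motifs of transcription factor families.
*Ahr*, chr12:35564554-35564853: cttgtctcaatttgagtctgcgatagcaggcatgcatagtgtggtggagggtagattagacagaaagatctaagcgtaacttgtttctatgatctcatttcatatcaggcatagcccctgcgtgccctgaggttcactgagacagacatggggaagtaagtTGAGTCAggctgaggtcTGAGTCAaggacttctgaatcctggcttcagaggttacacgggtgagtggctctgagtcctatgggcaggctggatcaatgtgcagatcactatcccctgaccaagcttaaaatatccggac
*Gata3*, chr2:9776032-9776331: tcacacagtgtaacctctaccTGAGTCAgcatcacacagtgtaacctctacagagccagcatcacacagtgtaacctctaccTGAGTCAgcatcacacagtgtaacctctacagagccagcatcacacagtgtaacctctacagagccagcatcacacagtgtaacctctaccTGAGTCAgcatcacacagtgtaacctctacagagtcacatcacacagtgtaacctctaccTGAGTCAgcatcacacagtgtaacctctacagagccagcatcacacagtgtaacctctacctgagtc
*Klrc3*, chr6:129643134-129643433: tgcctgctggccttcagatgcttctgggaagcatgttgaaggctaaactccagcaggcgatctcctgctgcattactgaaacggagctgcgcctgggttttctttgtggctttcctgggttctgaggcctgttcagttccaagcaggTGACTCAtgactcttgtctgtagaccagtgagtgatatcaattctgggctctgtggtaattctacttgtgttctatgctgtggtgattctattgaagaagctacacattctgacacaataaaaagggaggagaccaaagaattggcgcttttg
*Hic1*, chr11:75154261-75154560: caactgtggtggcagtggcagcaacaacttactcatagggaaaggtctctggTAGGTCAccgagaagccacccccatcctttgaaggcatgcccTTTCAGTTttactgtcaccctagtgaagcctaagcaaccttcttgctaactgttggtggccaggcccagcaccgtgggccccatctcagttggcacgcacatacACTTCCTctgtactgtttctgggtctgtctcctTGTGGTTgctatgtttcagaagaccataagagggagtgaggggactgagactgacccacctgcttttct
*Alox5*, chr6:116456487-116456786: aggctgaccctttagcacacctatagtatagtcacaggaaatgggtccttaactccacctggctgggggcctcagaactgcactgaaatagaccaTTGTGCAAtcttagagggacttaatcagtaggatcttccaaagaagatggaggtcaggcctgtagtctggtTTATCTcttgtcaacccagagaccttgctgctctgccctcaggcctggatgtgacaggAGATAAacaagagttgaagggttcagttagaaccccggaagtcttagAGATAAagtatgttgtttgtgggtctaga
*Il1rl1*, chr1:40418565-40418864: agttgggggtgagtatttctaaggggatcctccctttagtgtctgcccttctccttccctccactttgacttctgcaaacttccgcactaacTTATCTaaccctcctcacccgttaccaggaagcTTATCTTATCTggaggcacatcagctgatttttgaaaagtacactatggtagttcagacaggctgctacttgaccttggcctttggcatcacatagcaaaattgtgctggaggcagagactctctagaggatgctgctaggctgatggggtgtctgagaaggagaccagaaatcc
*Runx1t1*, chr4:13805765-13806064: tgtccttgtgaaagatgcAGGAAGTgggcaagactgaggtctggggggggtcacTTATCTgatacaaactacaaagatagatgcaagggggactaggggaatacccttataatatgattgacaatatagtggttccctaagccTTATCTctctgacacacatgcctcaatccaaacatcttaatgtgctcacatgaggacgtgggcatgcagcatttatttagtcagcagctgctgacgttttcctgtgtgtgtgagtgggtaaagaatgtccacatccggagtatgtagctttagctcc
*Elp3*, chr14:65516389-65516688: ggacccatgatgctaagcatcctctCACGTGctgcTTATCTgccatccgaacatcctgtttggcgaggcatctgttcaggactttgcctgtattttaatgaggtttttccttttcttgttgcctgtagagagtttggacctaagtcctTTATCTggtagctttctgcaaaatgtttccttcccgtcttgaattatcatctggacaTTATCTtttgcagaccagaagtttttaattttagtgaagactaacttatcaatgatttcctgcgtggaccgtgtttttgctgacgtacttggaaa
The window upstream of *Ahr* has 2 matches to the AP-1 letters TGAGTCA, and the window at the *Klrc3* start site has 1 match, on the minus strand. The *Gata3* window has 4 matches, within a short unit that is repeated in tandem along the window. The *Hic1* window, which lies in intron 15 of *Smg6*, has 1 match each to the ROR letters TAGGTCA, the RUNX letters TGTGGTT, the ETS letters AGGAAGT and the IRF letters AANTGAAA. Each pancreas window carries the GATA letters AGATAA: 3 matches in intron 1 of *Alox5*, 3 upstream of *Il1rl1*, 2 in intron 2 of *Runx1t1* and 3 in the window nearest to *Elp3*. The other capitals in the pancreas windows mark a C/EBP match (TTGCACAA) at *Alox5*, an ETS match at *Runx1t1* and an E box (CACGTG) at *Elp3*. A match describes letters only and shows neither a bound factor nor a cause.

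The libraries held between 10282987 (pancreas 2) and 23133684 (LI 2) counts, with medians of 71 to 178 counts per region. LI 1 and pancreas 2 stood apart: regions in which repeats make up at least 50% of the bases took 22.7% and 25.8% of their counts, against 6.57% to 13.9% in the other 8 libraries. Between the libraries of a tissue, counts correlated across regions with Spearman's rho of 0.947 for LI and 0.956 for pancreas, as a description, since regions are not independent. Levels are given as CPM, counts scaled to the size of the library and normalized by the TMM method, which evens out the libraries' composition. Each of 10 ILC2 marker genes had a region. The regions merge peaks of 5 tissues, so having one does not show that it was open in these 2. The *Gata3* promoter stood at 41.9 and 49.9 CPM in LI and 50.8 and 49.9 CPM in pancreas. Of the 8 marker genes with a promoter region, *Il1rl1* was lowest in LI, at 5.67 and 7.39 CPM against 27.0 and 15.2 CPM in pancreas.

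Of the 49981 regions, 1633 (3.27%) differed between LI and pancreas at an adjusted p below 0.05 in edgeR's quasi-likelihood test, and these are the regions called here. LI had the higher level at 1007 of them (2.01% of regions tested) and pancreas at 626 (1.25%). The median log2 fold change (LI minus pancreas) was 1.57 at the regions higher in LI and -1.40 at those higher in pancreas, against 0.01 over all regions. The smallest absolute log2 fold change of a called region was 0.72, and 93.8% and 89.1% of the 2 sets changed by more than 1. At an unadjusted p below 0.05, 4364 regions were higher in LI and 3237 in pancreas.

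Other pairs of tissues differed at more regions. In the same fit, lung and pancreas differed at 2907 regions (5.82%), 2099 of them higher in pancreas, and LI and SI differed at 4216 (8.44%), 3449 of them higher in LI. Each of these pairs shares 2 libraries with the comparison of LI and pancreas, and the SI cells were sorted by Thy1 and KLRG1 in place of ST2. Numbers of calls also depend on depth and repeats. LI against pancreas is the pair that holds both LI 1 and pancreas 2, the smallest and most repeat-rich libraries of the series. Fewer calls therefore do not show that the chromatin was more alike.

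**Figure D1:**
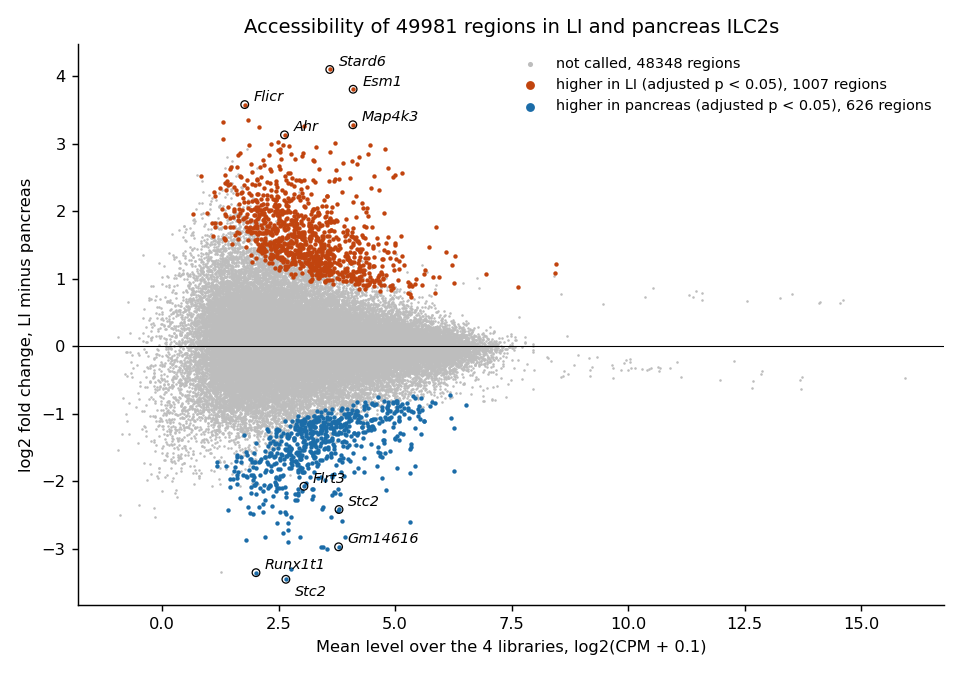
Each point is 1 region, with its mean level over the 4 libraries (log2 of CPM plus 0.1) on the horizontal axis and its log2 fold change, LI minus pancreas, on the vertical axis. The 1007 regions higher in LI (orange) reach 4.10 at *Stard6*, and the 626 higher in pancreas (blue) reach -3.45 at *Stc2*.

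The calls rest on few libraries. Every one of the 1633 regions kept its direction when any 1 of the 4 libraries was left out, but many missed the threshold. The CPM of the 2 groups did not overlap at any of these regions, so leaving out libraries could hardly turn a direction. Of the LI calls, 546, 168, 55 and 354 were made again without LI 1, LI 2, pancreas 1 and pancreas 2, and of the pancreas calls 192, 95, 49 and 156. Without both repeat-rich libraries (LI 1 and pancreas 2), 135 of the LI calls and 29 of the pancreas calls were called again, all 1633 in the same direction.

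The largest difference lay at chr18:70458225-70458725 in intron 6 of *4930503L19Rik*, 13979 bp from the start of *Stard6*, a lipid transfer gene. It held 19.2 and 26.2 CPM in LI 1 and LI 2 against 1.12 and 1.62 CPM in pancreas 1 and 2 (log2 fold change 4.10 ± 0.37, the standard error of the fit, adjusted p = 0.000105). Both SI libraries were also high here, at 20.3 and 30.3 CPM, and lung and BM stayed at or below 1.22 CPM. A region 35624 bp from *Esm1*, which encodes a secreted proteoglycan, came next, with 22.0 and 41.6 CPM in LI and 2.06 and 2.59 CPM in pancreas (3.80 ± 0.38, adjusted p = 0.000111). At *Map4k3*, a kinase gene of the MAP4K family, a region 7070 bp upstream held 29.9 and 31.6 CPM in LI and 2.94 and 3.45 CPM in pancreas (3.28 ± 0.33, adjusted p = 0.000111). These 3 regions stayed called without any 1 of the 4 libraries, and in each both LI libraries stood several times above both pancreas libraries.

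Some of the largest fold changes toward LI lay at regions of lower level. A region upstream of *Flicr*, a noncoding RNA gene beside *Foxp3*, held 6.10 and 6.13 CPM in LI and 0.412 and 0.647 CPM in pancreas (3.58 ± 0.56, adjusted p = 0.00272). The regions at *Mterf1b*, a gene of the mitochondrial termination factor family (3.35 ± 0.56), *Phlpp1*, a phosphatase gene (3.31 ± 0.74), and *Dennd11* (3.24 ± 0.57) were higher in LI as well. The lowest pancreas value among these was 0.0589 CPM, at *Phlpp1* in pancreas 1. The *Flicr* call was lost without pancreas 1 (adjusted p = 0.0933), and the *Mterf1b* call without pancreas 1 (adjusted p = 0.103). The *Phlpp1* call was lost without LI 1 (adjusted p = 0.0506), LI 2 (0.123) or pancreas 1 (0.229), and the *Dennd11* call without LI 2 (adjusted p = 0.0770) or pancreas 1 (0.152).

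On the pancreas side, the largest difference lay 11766 bp from *Stc2*, which encodes the secreted glycoprotein stanniocalcin 2. It held 10.3 and 12.4 CPM in pancreas 1 and 2 and 1.31 and 0.825 CPM in LI 1 and 2 (-3.45 ± 0.48, adjusted p = 0.00138). Intron 2 of *Runx1t1*, a transcriptional corepressor gene, followed at 6.24 and 8.20 CPM in pancreas and 0.523 and 0.825 CPM in LI (-3.35 ± 0.53, adjusted p = 0.00272). The regions nearest to *1700027J07Rik* (-3.01 ± 0.42), *Gm14616* (-2.97 ± 0.24), *Elp3* (-2.97 ± 0.35), whose product is the catalytic subunit of Elongator, and *Adgrl2* (-2.97 ± 0.38), an adhesion receptor gene, followed. These 6 regions stayed called without any 1 of the 4 libraries. The *Elp3* region, printed above, showed the gap in each library, with 19.5 and 18.1 CPM in pancreas, 1.92 and 2.78 CPM in LI, 1.83 and 0.906 CPM in SI, 5.88 and 5.00 CPM in lung and 1.61 and 1.61 CPM in BM. Here the pancreas libraries stood above the other 8. At *Gm14616* the order was another one, since lung, at 43.0 and 45.7 CPM, stood above pancreas, at 22.3 and 26.4 CPM. A region in intron 1 of *Wipf3*, nearest to *9130019P16Rik*, was also higher in pancreas (-2.90 ± 0.48, adjusted p = 0.00380). Its call was lost without LI 2 (adjusted p = 0.0755) or pancreas 1 (0.0658).

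**Figure D2:**
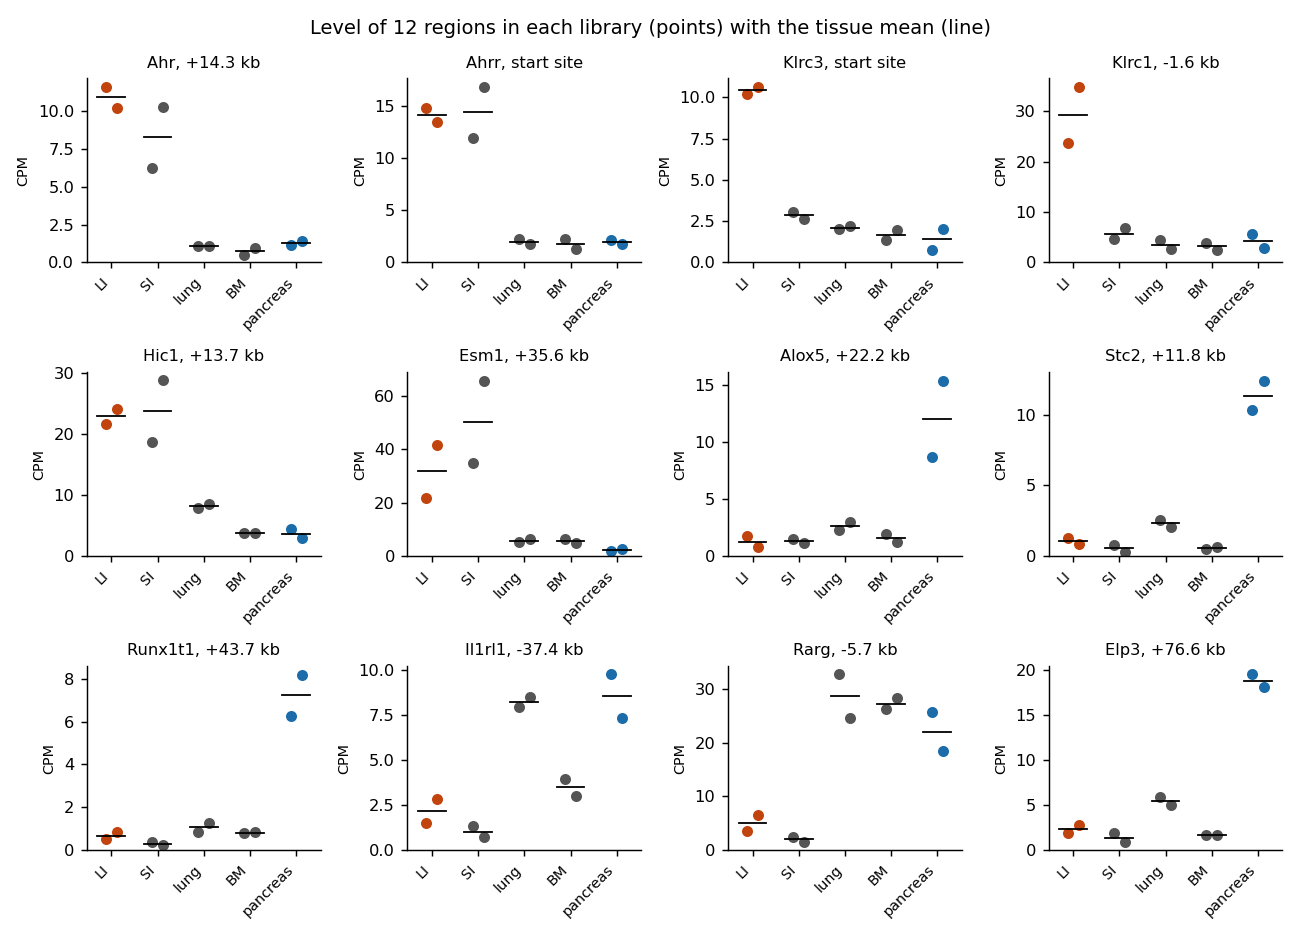
Level of 12 regions (CPM, vertical axis from 0) in each library of the 5 tissues, with points for libraries, lines for tissue means, and the distance from the nearest transcription start site in each title. *Ahr*, *Ahrr*, *Hic1* and *Esm1* are high in LI and SI, *Klrc3* and *Klrc1* in LI, *Alox5*, *Stc2*, *Runx1t1* and *Elp3* in pancreas, and *Il1rl1* and *Rarg* are low in LI and SI.

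Promoters were seldom called. A region counts here as a promoter with its centre up to 1000 bp before or 100 bp after a start site. Of 9580 promoter regions, 0.418% were higher in LI and 0.303% in pancreas, against 2.31% and 1.35% of the 24048 other regions inside genes and 2.52% and 1.67% of the 16353 intergenic regions. The 4 largest promoter differences toward LI lay at *Klrc3*, *Ahrr*, *Klrc2* and the carboxylesterase pseudogene *Ces2d-ps* (2.46 ± 0.38, adjusted p = 0.00251). The 4 largest toward pancreas lay at *Stc2* (-2.42 ± 0.34), at *Flrt2* and *Flrt3*, which encode cell surface adhesion proteins (-2.26 ± 0.34 and -2.07 ± 0.38), and at *Shld1*, a DNA repair gene (-1.93 ± 0.30). The *Stc2* promoter held 19.8 and 26.6 CPM in pancreas and 5.23 and 3.56 CPM in LI, and the *Flrt2* promoter 15.02 and 15.2 CPM in pancreas and 3.40 and 2.95 CPM in LI. Both stayed called without any 1 library. The *Ces2d-ps* call was lost without pancreas 1 (adjusted p = 0.0998), the *Flrt3* call without LI 2 (adjusted p = 0.0990) or pancreas 1 (0.148), and the *Shld1* call without pancreas 1 (adjusted p = 0.0556).

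Called regions clustered at some genes. Of 16735 genes with a tested region, 697 (4.16%) had at least 1 region higher in LI and 496 (2.96%) at least 1 higher in pancreas. Among the 287 genes with 2 or more called regions, 180 had them all higher in LI, 85 all higher in pancreas, and 22 in both directions. Each region was given to the gene with the nearest start site, which does not show which gene it acts on. A gene with many regions has more chances of a call. Counts of list genes below are therefore to be read with the shares of regions, against 2.01% toward LI and 1.25% toward pancreas over all regions.

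The AHR pathway held called regions in 1 direction. Regions lay near all 13 listed genes of the pathway, and 14 of their 73 regions (19.2%) were higher in LI and none in pancreas by edgeR, with a median log2 fold change of 0.39. DESeq2 called 17 toward LI and none toward pancreas, where 1 had an unadjusted p below 0.05 in edgeR. The 6 genes with such regions were the receptor gene *Ahr*, the repressor gene *Ahrr*, the target genes *Cyp1a1*, *Cyp1b1* and *Nqo1*, and *Kit*. The target genes encode enzymes that process AHR ligands or their products, and *Kit* encodes the receptor for stem cell factor. Genes without a called region included *Arnt*, *Arnt2*, *Tiparp*, *Ikzf3*, *Hsp90ab1* and *Ptges3*. *Ahr* and *Ahrr* kept at least 1 called region without any 1 of the 4 libraries and also without LI 1 and pancreas 2 together. The genes called toward LI numbered 5, 3, 2 and 3 without LI 1, LI 2, pancreas 1 and pancreas 2.

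At *Ahr*, 19 of 21 regions had log2 fold changes above 0, and 6 were called, from 35264 bp upstream to 24088 bp downstream of the start site. The strongest lay in intron 2 at chr12:35520418-35520927, with 11.6 and 10.2 CPM in LI and 1.12 and 1.40 CPM in pancreas (3.13 ± 0.40, adjusted p = 0.000755). The region 29714 bp upstream, whose AP-1 matches are printed above, held 20.0 and 15.4 CPM in LI and 2.83 and 2.91 CPM in pancreas (2.62 ± 0.33, adjusted p = 0.000702). Both stayed called without any 1 library, and in both each LI library stood at least 5 times as high as each pancreas library. Without LI 1 and pancreas 2 together, the adjusted p was 0.0475 in intron 2 and 0.0581 upstream. Of the other called *Ahr* regions, the one 35264 bp upstream (2.56 ± 0.43) was lost without pancreas 1 (adjusted p = 0.130). The one 31725 bp upstream (1.92 ± 0.40) was lost without LI 2 (adjusted p = 0.148), pancreas 1 (0.230) or pancreas 2 (0.0534). The one in intron 5 (2.54 ± 0.54) was lost without any 1 of the 4 libraries (adjusted p = 0.0622 to 0.120), and the one 18341 bp upstream (1.42 ± 0.37) without any 1 of the 4 libraries (adjusted p = 0.121 to 0.278).

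The *Ahrr* promoter, at chr13:74292085-74292597, held 14.8 and 13.5 CPM in LI and 2.12 and 1.73 CPM in pancreas (2.85 ± 0.34, adjusted p = 0.000378) and stayed called without any 1 library. SI resembled LI at this promoter, with 11.9 and 16.9 CPM, and lung and BM resembled pancreas, with 2.23 and 1.77 CPM and 2.202 and 1.29 CPM. The *Cyp1a1* promoter held 12.03 and 11.2 CPM in LI and 3.71 and 3.13 CPM in pancreas (1.75 ± 0.31, adjusted p = 0.00517). This call was lost without pancreas 1 (adjusted p = 0.0874) or pancreas 2 (0.0628). For *Cyp1b1* the promoter stood at 33.8 and 26.4 CPM in LI and 16.5 and 15.7 CPM in pancreas (0.89 ± 0.23, adjusted p = 0.0460). The *Nqo1* promoter stood at 23.1 and 18.03 CPM in LI and 7.66 and 11.8 CPM in pancreas (1.10 ± 0.27, adjusted p = 0.0361). Neither call held without any 1 of the 4 libraries (adjusted p = 0.114 to 0.259 for *Cyp1b1* and 0.0592 to 0.361 for *Nqo1*). *Kit* had 3 of 22 regions higher in LI, the largest in exon 7 (2.11 ± 0.45, adjusted p = 0.0159), which was lost without LI 2 (adjusted p = 0.194) or pancreas 1 (0.250). *Kit* is also a mast cell marker, and the markers of other cells are given further on.

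Regions near some natural killer cell receptor genes on chromosome 6 were called toward LI. The genes are no list of their own and were put together after their values were seen, so nothing is read from their number. No region of *Klrg1*, another receptor gene of this kind, was called by edgeR (smallest adjusted p = 0.248). *Klrc1*, *Klrc2* and *Klrc3* encode NKG2 receptors, *Klrd1* encodes their partner CD94, and *Klrk1* encodes NKG2D. Upstream of *Klrc1*, a region held 23.8 and 34.9 CPM in LI and 5.65 and 2.91 CPM in pancreas (2.74 ± 0.37, adjusted p = 0.00105) and stayed called without any 1 library. The *Klrc3* promoter printed above held 10.2 and 10.6 CPM in LI and 0.766 and 2.05 CPM in pancreas (2.98 ± 0.44, adjusted p = 0.00189). The *Klrc2* promoter held 10.3 and 12.9 CPM in LI and 1.83 and 2.37 CPM in pancreas (2.49 ± 0.39, adjusted p = 0.00272). SI and lung stood near pancreas there, with SI at 3.03 and 2.65 CPM at *Klrc3* and none of the regions differing between SI and lung. The region 8034 bp from *Klrd1* differed by 2.17 ± 0.31 (adjusted p = 0.00172) and the *Klrk1* promoter by 0.99 ± 0.25 (adjusted p = 0.0363). The *Klrc3*, *Klrc2* and *Klrd1* calls were lost without pancreas 1 (adjusted p = 0.0662, 0.0919 and 0.0738). The *Klrk1* promoter call was lost without LI 2 (adjusted p = 0.352), pancreas 1 (0.199) or pancreas 2 (0.219). *Klrc2* and *Klrc3* are close copies of each other and only uniquely mapped reads were counted, so reads from stretches they share are missing from both.

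**Figure D3:**
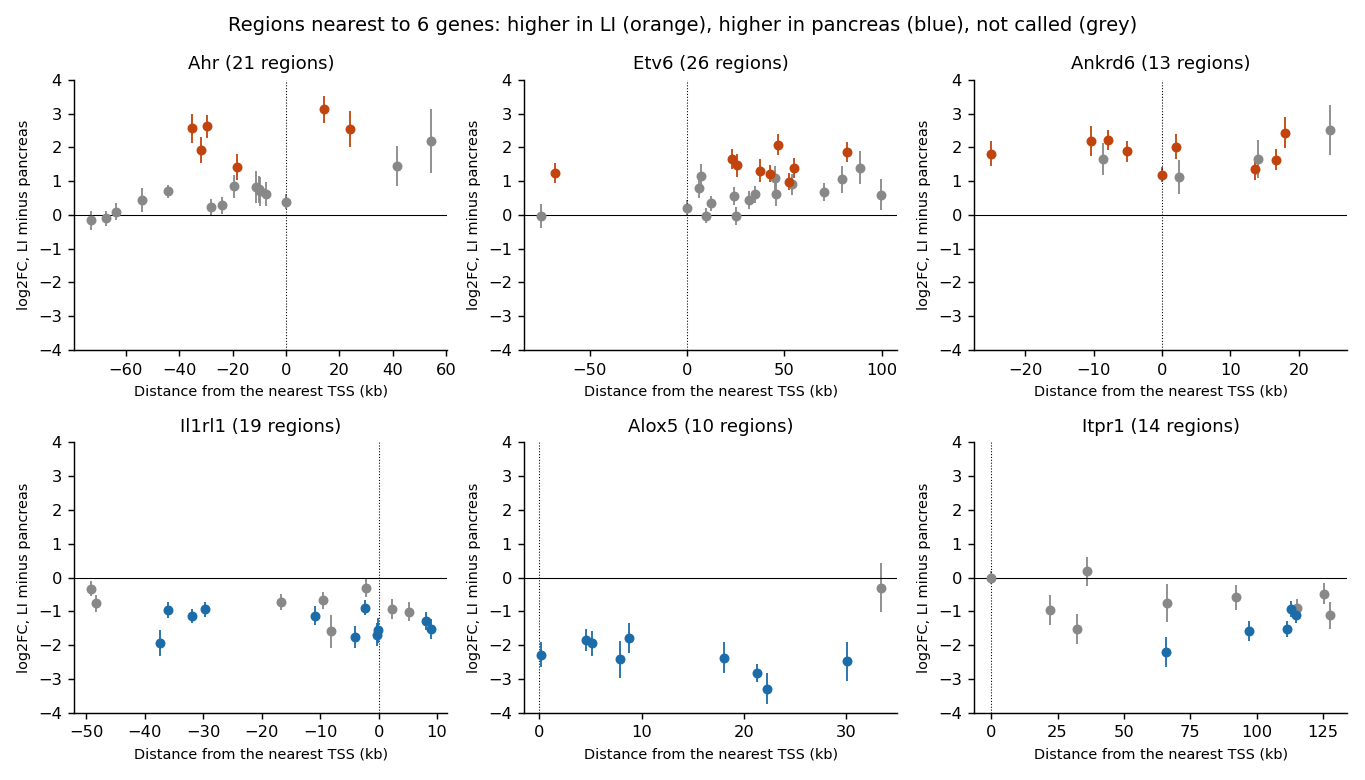
Log2 fold change, LI minus pancreas, with its standard error (vertical axis) of each tested region against the distance of its centre from the nearest start site in kb (horizontal axis) at 6 genes. All 13 *Ankrd6* regions lie above 0, and all 19 *Il1rl1* and all 10 *Alox5* regions lie below 0.

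Among genes without a call toward pancreas, *Ankrd6* and *Etv6* had the most regions called higher in LI, with 9 each. *Map4k3* followed with 7 and *Ahr* with 6, a number that *Jag1* also had. *Pde4b* had 9 as well, but also 1 called toward pancreas. *Ankrd6* encodes an ankyrin repeat protein of Wnt signaling, and all 13 of its regions had log2 fold changes above 0, from 1.12 to 2.52. Among them, the *Ankrd6* promoter held 24.4 and 28.6 CPM in LI and 13.5 and 9.49 CPM in pancreas (1.19 ± 0.23, adjusted p = 0.00990). The largest of its called regions, in intron 1, held 8.19 and 7.47 CPM in LI and 1.06 and 1.94 CPM in pancreas (2.44 ± 0.46, adjusted p = 0.00812). Here SI, lung and BM did not sort with the 2 groups: at the promoter they held 22.6 to 32.6 CPM, near the LI levels. The promoter call was lost without LI 2 (adjusted p = 0.120), pancreas 1 (0.0647) or pancreas 2 (0.114). The intron call was lost without LI 2 (adjusted p = 0.0569) or pancreas 1 (0.178).

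*Etv6*, a gene for an ETS family repressor, had 23 of 26 regions above 0, and 8 of its 9 called regions lay in its introns 1 and 2. The largest held 19.1 and 17.5 CPM in LI and 4.06 and 4.64 CPM in pancreas (2.08 ± 0.31, adjusted p = 0.00202) and was lost without pancreas 1 (adjusted p = 0.0791). *Map4k3* had all 16 regions above 0, and 14 of the 16 were also higher in SI than in lung. A second strong *Map4k3* region, in intron 1, held 11.4 and 18.2 CPM in LI and 1.35 and 1.83 CPM in pancreas (3.25 ± 0.33, adjusted p = 0.000111) and stayed called without any 1 library. *Jag1*, which encodes a Notch ligand, had 6 of 9 regions called higher in LI. The largest, 374257 bp upstream, held 7.93 and 16.5 CPM in LI and 2.12 and 2.37 CPM in pancreas (2.47 ± 0.40, adjusted p = 0.00300). That call was lost without LI 2 (adjusted p = 0.0657) or pancreas 1 (0.102).

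All 26 transcription factor genes listed for ILC2s and related lineages had regions, and 9 of them had at least 1 region higher in LI and 3 at least 1 higher in pancreas. Over their 386 regions, 17 (4.4%) were higher in LI and 7 (1.81%) in pancreas, against 2.01% and 1.25% of all regions. The median log2 fold change was 0.13. *Gata3*, the gene of the defining factor of ILC2s, had 3 of 19 regions higher in LI, the nearest of them 30088 bp from the start site. The one 102419 bp away, whose repeated window is printed above, held 39.1 and 28.1 CPM in LI and 8.13 and 9.49 CPM in pancreas (1.93 ± 0.31, adjusted p = 0.00317). No library of the other 3 tissues exceeded 3.27 CPM there. The call was lost without pancreas 1 (adjusted p = 0.103). *Runx3*, a factor of cytotoxic and innate lymphocytes, had 5 of 21 regions higher in LI. Its strongest, 40318 bp upstream, held 80.2 and 102 CPM in LI and 27.1 and 26.1 CPM in pancreas (1.77 ± 0.21, adjusted p = 0.000378) and stayed called without any 1 library.

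*Hic1*, a transcriptional repressor gene, had 7 of 8 regions above 0 and 1 called, the one in *Smg6* printed above. It held 21.6 and 24.2 CPM in LI and 4.42 and 2.91 CPM in pancreas (2.61 ± 0.29, adjusted p = 0.000250). No single library was needed for this call. A region 106411 bp from *Prdm1*, which encodes the repressor Blimp-1, held 9.15 and 15.6 CPM in LI and 1.65 and 2.05 CPM in pancreas (2.77 ± 0.40, adjusted p = 0.00173). It was lost without pancreas 1 (adjusted p = 0.0773). Intron 6 of *Ikzf2*, which encodes Helios, differed by 2.32 ± 0.45 (adjusted p = 0.0101) and was lost without LI 2 (adjusted p = 0.124) or pancreas 1 (0.221). The other LI members were *Tox*, *Runx1*, *Lmo4* and *Zeb2*, each with at least 1 called region. *Tox* had none in any fit with 1 library left out, *Runx1* and *Zeb2* had one without LI 1 but in no other such fit, and *Lmo4* had one without LI 1 or without pancreas 2. Toward pancreas, a region in intron 2 of *Zbtb16*, which encodes the ILC precursor factor PLZF, held 13.01 and 13.2 CPM in pancreas and 4.27 and 5.34 CPM in LI (-1.43 ± 0.31, adjusted p = 0.0186). All 14 *Zbtb16* regions were below 0. *Bach2*, a repressor gene of effector programs, had 27 of 29 regions below 0 and 3 called (-1.32 ± 0.26 at the largest, adjusted p = 0.0108). *Rora*, the RORα gene, had 1 of 29 called (-1.04 ± 0.25, adjusted p = 0.0287). The *Zbtb16* intron call and the *Rora* call were lost without any 1 of the 4 libraries (adjusted p = 0.0951 to 0.155 and 0.123 to 0.185). The *Bach2* call was lost without LI 1 (adjusted p = 0.0944), LI 2 (0.0554) or pancreas 1 (0.180).

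Type 2 cytokine genes were called at shares near those of all regions. Among 25 listed cytokine and effector genes with a region, *Il13*, *Il9* and *Bmp2* had a region higher in LI and *Bmp7* one higher in pancreas. Of the 150 regions, 4 (2.67%) and 2 (1.33%) were called, against 2.01% and 1.25% of all regions, with a median of -0.16. A region 13429 bp from *Il9*, the gene of a cytokine that sustains ILC2s, held 10.4 and 12.99 CPM in LI and 0.942 and 2.59 CPM in pancreas (2.84 ± 0.42, adjusted p = 0.00202). SI stood higher still, at 19.4 and 27.9 CPM. At *Il13* the called region lay 7695 bp from the start, with 21.7 and 32.8 CPM in LI and 11.5 and 9.06 CPM in pancreas (1.40 ± 0.29, adjusted p = 0.0146). The other 8 *Il13* regions were not called. The *Il9* call was lost without pancreas 1 (adjusted p = 0.0869) and the *Il13* call without LI 2 (adjusted p = 0.194), pancreas 1 (0.126) or pancreas 2 (0.142). Of the growth factor genes, *Bmp2* (1.83 ± 0.38, adjusted p = 0.0149) was lost without LI 2 (adjusted p = 0.229), pancreas 1 (0.141) or pancreas 2 (0.139). *Bmp7* (-1.17 ± 0.26, adjusted p = 0.0207) was lost without any 1 of the 4 libraries (adjusted p = 0.0604 to 0.202).

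The other effector genes examined by name did not pass the test at any region. The region of smallest p at *Il5* held 4.45 and 5.26 CPM in LI and 10.7 and 10.0 CPM in pancreas (-1.09 ± 0.33, adjusted p = 0.0845). For *Areg*, the gene of the repair factor amphiregulin, it was the promoter, with 23.1 and 32.8 CPM and 42.6 and 33.8 CPM (-0.45 ± 0.24, adjusted p = 0.423). *Csf2* (-0.63 ± 0.27, adjusted p = 0.273) and *Arg1* (-0.75 ± 0.28, adjusted p = 0.170) also missed the threshold. All 4 values lay below 0, toward pancreas, and a missed threshold does not show that the tissues were alike.

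Regions near *Il17a*, *Il17f* and *Il22*, cytokine genes of ILC3s, were more accessible in LI. *Il17a* had 2 of 3 regions called. The one with the larger difference, 23706 bp from the start, held 8.72 and 10.6 CPM in LI and 1.77 and 1.19 CPM in pancreas (2.67 ± 0.38, adjusted p = 0.00142). It was called without any 1 library. The region of *Il17f* differed by 2.18 ± 0.49 (adjusted p = 0.0211) and that of *Il22* by 1.21 ± 0.24 (adjusted p = 0.0114). The *Il17f* call was lost without LI 2 (adjusted p = 0.244), pancreas 1 (0.247) or pancreas 2 (0.0721). The *Il22* call was lost without LI 2 (adjusted p = 0.140), pancreas 1 (0.189) or pancreas 2 (0.0615). As a marker list, the ILC3 genes had 9 regions at 5 of 7 genes, 4 of them higher in LI and none in pancreas by edgeR. DESeq2 called 5 toward LI, and none had an unadjusted p below 0.05 toward pancreas. The 9 regions summed to 69.3 and 95.3 CPM in LI and 34.2 and 34.4 CPM in pancreas. *Il23r* and *Ncr1* had no region in the table. How far a share of ILC3s in the LI sort bears on these values was not tested.

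Among receptors for alarmins and cytokines, pancreas was the higher tissue more often. Of 25 genes with a region, 5 had a region higher in pancreas (*Il1rl1*, *Il2ra*, *Il10ra*, *Il6ra* and *Il21r*) and 1 had a region higher in LI (*Il1r1*). Of the 162 regions, 16 (9.88%) were higher in pancreas and 3 (1.85%) in LI, against 1.25% and 2.01% of all regions, with a median of -0.17. *Il1rl1* accounted for 11 of the 16. With 1 library left out, *Il6ra* had no called region in any fit, and *Il10ra* had one without pancreas 2 but in no other such fit. All 19 *Il1rl1* regions had log2 fold changes below 0, from -1.95 to -0.31. The groups did not overlap at 18 of the 19, against 45.1% of all regions tested. The cells of both tissues had been sorted as ST2+.

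At *Il1rl1* the called regions lay between 37407 bp before and 8890 bp after a start site. The farthest upstream held 9.78 and 7.33 CPM in pancreas and 1.48 and 2.82 CPM in LI (-1.95 ± 0.38, adjusted p = 0.0101). The one of smallest p, at chr1:40397373-40397895, held 45.5 and 40.4 CPM in pancreas and 19.9 and 19.2 CPM in LI (-1.14 ± 0.20, adjusted p = 0.00589). The promoter of the upstream start held 27.0 and 15.2 CPM in pancreas and 5.67 and 7.39 CPM in LI (-1.69 ± 0.34, adjusted p = 0.0109). The region 10856 bp upstream, printed above for its 3 GATA matches, held 19.2 and 11.4 CPM and 6.28 and 7.78 CPM (-1.13 ± 0.28, adjusted p = 0.0395). None of the 4 calls held without pancreas 1 (adjusted p = 0.161, 0.109, 0.227 and 0.442), and each was also lost in at least 1 of the fits without LI 1 and without LI 2 (adjusted p up to 0.0811, 0.0857, 0.0916 and 0.203). In the fit without pancreas 1 no *Il1rl1* region was called, while at least 1 was called without each of the other 3 libraries. Without LI 1 and pancreas 2 together none was called, and the adjusted p of the 11 regions ran from 0.102 to 0.394.

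For *Il2ra*, which encodes CD25, 1 of 13 regions was higher in pancreas, at 14.96 and 17.3 CPM against 7.58 and 5.43 CPM in LI (-1.32 ± 0.29, adjusted p = 0.0199). Intron 7 of *Il21r* differed by -1.67 ± 0.38 (adjusted p = 0.0241), and intron 1 of *Il1r1*, the IL-1 receptor gene, by 1.67 ± 0.40 (adjusted p = 0.0285) toward LI. The *Il2ra* call was lost without LI 2 (adjusted p = 0.215), pancreas 1 (0.131) or pancreas 2 (0.129). The *Il21r* and *Il1r1* calls were lost without any 1 of the 4 libraries (adjusted p = 0.103 to 0.178 and 0.0518 to 0.256).

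*Alox5*, which encodes the 5-lipoxygenase that starts leukotriene synthesis, had nearly all of its regions called. Of the 10, 9 were higher in pancreas, between the first exon and 30102 bp downstream, and the median over the 10 was -2.33. In intron 3, the region at chr6:116439503-116440227 held 23.6 and 29.2 CPM in pancreas and 3.49 and 3.91 CPM in LI (-2.82 ± 0.28, adjusted p = 0.000111). Its neighbour held 8.72 and 15.4 CPM in pancreas and 1.74 and 0.825 CPM in LI (-3.29 ± 0.46, adjusted p = 0.00139). Both stayed called without any 1 library and without LI 1 and pancreas 2 together. Exon 1 held 12.2 and 11.97 CPM in pancreas and 3.14 and 1.95 CPM in LI (-2.28 ± 0.37, adjusted p = 0.00318). The intron 1 region printed above held 8.72 and 6.90 CPM in pancreas and 1.92 and 2.39 CPM in LI (-1.84 ± 0.33, adjusted p = 0.00570). The exon 1 call was lost without LI 2 (adjusted p = 0.0771) or pancreas 1 (0.0653) and the intron 1 call without LI 2 (adjusted p = 0.0558) or pancreas 1 (0.114).

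Other genes of the eicosanoid pathway, which makes and senses leukotrienes and prostaglandins, moved at single regions. Of 24 genes with a region, 4 had one higher in pancreas and none had one higher in LI, and 12 of 107 regions (11.2%) were called, 9 of them at *Alox5*, with a median of -0.16 over the list. Toward LI, neither DESeq2 nor an unadjusted p below 0.05 in edgeR marked any region of the list. A region 24154 bp upstream of *Ptges*, a prostaglandin E synthase gene, held 11.7 and 11.8 CPM in pancreas and 3.84 and 3.78 CPM in LI (-1.62 ± 0.40, adjusted p = 0.0333). The region nearest to *Lpcat2*, a phospholipid enzyme gene, lay in intron 9 of *Mmp2* (-1.63 ± 0.42, adjusted p = 0.0451), and *Ptgir*, the prostacyclin receptor gene, was the fourth gene, called again without LI 2 but in no other fit with 1 library left out. The *Ptges* and *Lpcat2* calls were lost without any 1 of the 4 libraries (adjusted p = 0.131 to 0.211 and 0.0598 to 0.349). *Alox5* alone of the list was called in every fit with 1 library left out. *Ltb4r1*, the leukotriene B4 receptor gene, came close to the threshold at -0.96 ± 0.26 (adjusted p = 0.0528).

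Genes of the retinoid and TGF-beta pathways were called toward pancreas only. Of 26 genes with a region, *Rara*, *Rarg*, *Dhrs3*, *Tgfb1*, *Smad3* and *Ski* had at least 1 region higher in pancreas, and 10 of the 178 regions (5.62%) were called, with a median of -0.14. Toward LI, 7 regions had an unadjusted p below 0.05 in edgeR and DESeq2 called none. The promoter of *Rara*, a retinoic acid receptor gene, held 50.8 and 36.9 CPM in pancreas and 16.5 and 13.6 CPM in LI (-1.56 ± 0.21, adjusted p = 0.00111) and stayed called without any 1 library. Lung and BM resembled pancreas there, at 48.4 and 50.0 CPM and 47.1 and 51.2 CPM, and SI resembled LI, at 14.8 and 13.1 CPM. Upstream of *Rarg*, the gene of another retinoic acid receptor, a region held 25.7 and 18.4 CPM in pancreas and 3.49 and 6.43 CPM in LI (-2.12 ± 0.31, adjusted p = 0.00189). All 5 *Rarg* regions were below 0. The *Rarg* call was lost without pancreas 1 (adjusted p = 0.0652). The region nearest to *Dhrs3*, a retinal reductase gene, lay in intron 68 of *Vps13d* (-1.50 ± 0.30) and was lost without LI 2 (adjusted p = 0.144), pancreas 1 (0.122) or pancreas 2 (0.0703). *Tgfb1* and *Ski* had no called region in any fit with 1 library left out, and *Smad3* had one without LI 1 or without pancreas 1. Without pancreas 2, 1 gene of the list, *Rxra*, had a region higher in LI.

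*Runx1t1* and *Stc2* had most of their regions called toward pancreas. At *Runx1t1*, all 3 regions were called. The one at the 5′ end held 11.3 and 9.06 CPM in pancreas and 2.70 and 1.74 CPM in LI (-2.24 ± 0.45, adjusted p = 0.0109). The intron 2 region printed above held 10.4 and 8.63 CPM in pancreas and 2.35 and 1.26 CPM in LI (-2.45 ± 0.49, adjusted p = 0.0119). Both were lost without LI 2 (adjusted p = 0.160 and 0.165) or pancreas 1 (adjusted p = 0.154 and 0.147). At *Stc2*, 3 of 4 regions were called. *Itpr1*, the gene of an intracellular calcium channel, had 5 of 14 regions called toward pancreas, all in intron 4. The one of smallest p held 64.6 and 53.5 CPM in pancreas and 17.96 and 23.03 CPM in LI (-1.52 ± 0.24, adjusted p = 0.00304) and was lost without pancreas 1 (adjusted p = 0.0791). All 4 regions nearest to *Gm5420*, a gene model without a name, were higher in pancreas, by -2.62 to -2.41 in log2 fold change, and 2 of them stayed called without any 1 library.

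**Figure D4:**
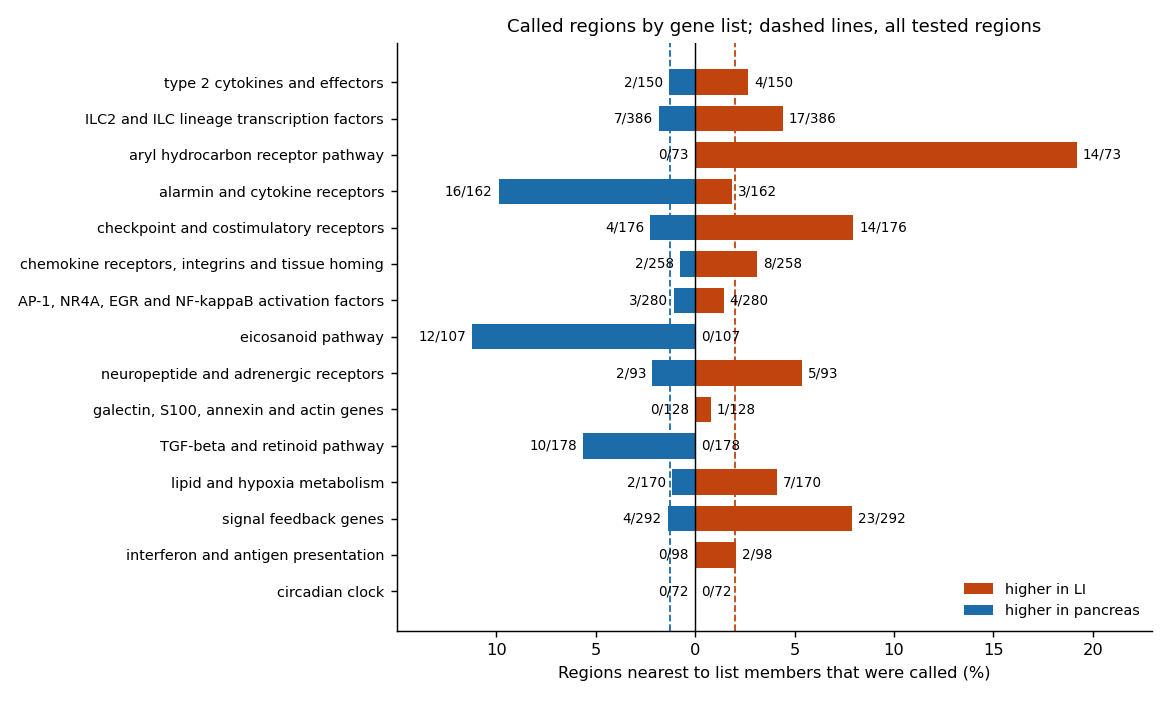
Share of the regions nearest to the genes of each of 15 lists that were called higher in LI (orange, to the right) or in pancreas (blue, to the left), in percent, with the counts of called and tested regions beside each bar and dashed lines for all tested regions. The AHR pathway (14 of 73) reaches farthest to the right, and the eicosanoid pathway (12 of 107) and the alarmin and cytokine receptors (16 of 162) farthest to the left.

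Checkpoint and costimulatory receptor genes were called in both directions. Of 26 genes with a region, 9 had one higher in LI (*Pdcd1*, *Ctla4*, *Icos*, *Lag3*, *Klrk1*, *Cd83*, *Cd160*, *Cd69* and *Cd96*) and 3 one higher in pancreas (*Tnfrsf4*, *Tnfsf8* and *Cd244a*), and the median was 0.10. The called regions numbered 14 (7.95%) and 4 (2.27%) of 176, against 2.01% and 1.25% of all regions. Upstream of *Pdcd1*, the PD-1 gene, a region held 9.15 and 18.6 CPM in LI and 4.53 and 4.42 CPM in pancreas (1.64 ± 0.32, adjusted p = 0.00998). *Icos*, the gene of a costimulatory receptor that ILC2s carry, differed by 2.17 ± 0.50 (adjusted p = 0.0264) and *Ctla4* by 1.85 ± 0.46 (adjusted p = 0.0368). Toward pancreas, *Tnfsf8*, the CD30 ligand gene, held 27.6 and 26.6 CPM in pancreas and 5.06 and 9.64 CPM in LI (-1.86 ± 0.33, adjusted p = 0.00597). *Cd244a* and *Tnfrsf4* differed by -1.59 ± 0.40 and -1.06 ± 0.26. The *Pdcd1* call was lost without LI 2 (adjusted p = 0.200), pancreas 1 (0.153) or pancreas 2 (0.0875) and the *Icos* call without LI 1 (adjusted p = 0.0646), LI 2 (0.178) or pancreas 1 (0.303). The *Tnfsf8* call was lost without LI 1 (adjusted p = 0.0618) or pancreas 1 (0.0933). Those of *Ctla4*, *Cd244a* and *Tnfrsf4* were lost without any 1 of the 4 libraries (adjusted p = 0.0896 to 0.331, 0.0670 to 0.338 and 0.0551 to 0.233). *Lag3*, *Cd160* and *Cd69* had no called region in any fit with 1 library left out, *Cd83* had one without LI 1 but in no other such fit, and *Cd96* had one without LI 1 or without pancreas 2. *Tnfrsf9*, the 4-1BB gene, had no called region (-0.18 ± 0.26 at its smallest p, adjusted p = 0.839), and neither had *Lilr4b* (0.36 ± 0.20, adjusted p = 0.439).

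Among 33 chemokine receptor, integrin and homing genes, *Cxcr5*, *Gpr15*, *Gpr18*, *Selplg*, *Itga4* and *Itgae* had a region higher in LI, and the genes with one higher in pancreas included *Ccr1*, with 8 (3.10%) and 2 (0.775%) of 258 regions called. *Gpr15*, which encodes a receptor that guides lymphocytes to the colon, held 17.1 and 20.9 CPM in LI and 4.24 and 6.15 CPM in pancreas 16845 bp from its start (1.90 ± 0.35, adjusted p = 0.00743). *Itga4*, a subunit of the gut homing integrin, differed by 2.00 ± 0.44 (adjusted p = 0.0193), and *Itgae*, the CD103 gene, by 1.63 ± 0.43 (adjusted p = 0.0484). In the other direction, *Ccr1*, a chemokine receptor gene, differed by -1.80 ± 0.30 (adjusted p = 0.00407). The *Gpr15* call was lost without LI 2 (adjusted p = 0.0841) or pancreas 1 (0.176) and the *Itga4* call without LI 2 (adjusted p = 0.257), pancreas 1 (0.274) or pancreas 2 (0.0522). The *Ccr1* call was lost without pancreas 1 (adjusted p = 0.0588), and the *Itgae* call without any 1 of the 4 libraries (adjusted p = 0.0845 to 0.376). *Cxcr5*, *Gpr18* and *Selplg* had a called region without LI 1 but in no other fit with 1 library left out. *Ccr2* (-1.03 ± 0.32, adjusted p = 0.1003) and *Ccr8* (-0.81 ± 0.25, adjusted p = 0.0883) did not pass.

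Receptors for signals from nerves were called at 4 of 18 genes. Those called toward LI included *Ret* and *Vipr2*, which encode receptors for neurotrophic factors and vasoactive intestinal peptide (1.51 ± 0.29 and 1.46 ± 0.38). *Ramp1*, which encodes a subunit of the receptor for the neuropeptide CGRP, was called toward pancreas. Its intron 1 held 41.9 and 34.5 CPM in pancreas and 11.9 and 12.9 CPM in LI (-1.62 ± 0.21, adjusted p = 0.000702) and stayed called without any 1 library. *Ret* (adjusted p = 0.00921) was lost without LI 2 (adjusted p = 0.0629), pancreas 1 (0.171) or pancreas 2 (0.0615). *Vipr2* (adjusted p = 0.0472) was lost without any 1 of the 4 libraries (adjusted p = 0.0531 to 0.429). Over the list, 5 (5.38%) and 2 (2.15%) of 93 regions were called toward LI and pancreas, against 2.01% and 1.25% of all regions. The genes with such a region numbered 3 and 1, against shares of 4.16% and 2.96% of all genes.

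Among 29 genes of signal feedback, 9 had a region higher in LI and 4 one higher in pancreas, with *Dusp6* and *Pde4b* in both counts, and 23 (7.88%) and 4 (1.37%) of 292 regions were called. *Pde4b*, which encodes an enzyme that breaks down cAMP, had 9 of 28 regions higher in LI and 1 higher in pancreas. The region 18187 bp from a *Pde4b* start held 60.1 and 60.6 CPM in LI and 8.89 and 11.6 CPM in pancreas (2.57 ± 0.25, adjusted p = 0.000111) and stayed called without any 1 library. The region in intron 1 held 7.30 and 6.15 CPM in pancreas and 2.35 and 3.21 CPM in LI (-1.26 ± 0.32, adjusted p = 0.0416). So 1 locus carried calls in both directions, the one toward pancreas being lost without any 1 of the 4 libraries (adjusted p = 0.105 to 0.290). *Dusp4*, a MAP kinase phosphatase gene (1.97 ± 0.49), and *Pde7a* (1.68 ± 0.43) were called toward LI, and *Dusp6* (-1.63 ± 0.35) and *Cish*, a cytokine signaling inhibitor gene (-1.22 ± 0.31), toward pancreas. Without pancreas 1, *Pde4b* was the gene of this list that kept a call. The *Dusp4* call was lost without LI 1 (adjusted p = 0.141), LI 2 (0.114) or pancreas 1 (0.373), and the *Pde7a* call without LI 2 (adjusted p = 0.346), pancreas 1 (0.372) or pancreas 2 (0.0545). The *Dusp6* and *Cish* calls were lost without any 1 of the 4 libraries (adjusted p = 0.0736 to 0.155 and 0.0784 to 0.379).

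Of 34 activation factor genes of the AP-1, NR4A, EGR and NF-kappaB families, *Fos*, *Jun* and *Nfkbiz* had a region higher in LI and *Egr2*, *Egr3* and *Nfatc2* one higher in pancreas. These were 4 (1.43%) and 3 (1.07%) of 280 regions, shares near those of all regions. The region at the 3′ end of *Jun*, an AP-1 gene, held 54.0 and 44.96 CPM in LI and 10.9 and 4.42 CPM in pancreas (2.64 ± 0.40, adjusted p = 0.00227) and stayed called without any 1 library. *Nfatc2* differed by -1.66 ± 0.30, *Egr2* by -1.65 ± 0.31, *Egr3* by -0.73 ± 0.19, *Fos* by 1.30 ± 0.32 and *Nfkbiz* by 1.35 ± 0.27. The *Nfatc2* call was lost without pancreas 1 (adjusted p = 0.102) and the *Egr2* call without LI 2 (adjusted p = 0.108), pancreas 1 (0.0751) or pancreas 2 (0.0713). The *Nfkbiz* call was lost without LI 2 (adjusted p = 0.0859), pancreas 1 (0.177) or pancreas 2 (0.0660). The *Egr3* call was lost without any 1 of the 4 libraries (adjusted p = 0.123 to 0.254), and so was the *Fos* call (adjusted p = 0.104 to 0.278).

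In lipid and hypoxia metabolism, 2 of 31 genes were called toward LI and 1 toward pancreas, against 4.16% and 2.96% of all genes. Of the 170 regions, 7 (4.12%) were higher in LI and 2 (1.18%) in pancreas, against 2.01% and 1.25% of all regions. *Epas1*, which encodes the hypoxia factor HIF-2α, had 5 of 13 regions higher in LI. In its intron 1, a region held 9.15 and 10.4 CPM in LI and 1.24 and 1.40 CPM in pancreas (2.90 ± 0.35, adjusted p = 0.000378) and stayed called without any 1 library. The *Epas1* promoter held 60.3 and 72.0 CPM in LI and 35.6 and 27.2 CPM in pancreas (1.07 ± 0.20, adjusted p = 0.00689). That call was lost without LI 2 (adjusted p = 0.111), pancreas 1 (0.0535) or pancreas 2 (0.0870). *Egln3*, a gene for an enzyme that marks hypoxia factors for decay, differed by 1.07 ± 0.25 and was lost without LI 2 (adjusted p = 0.237), pancreas 1 (0.131) or pancreas 2 (0.202). *Acsl4*, a fatty acid ligase gene, differed by -1.70 ± 0.40 and was lost without any 1 of the 4 libraries (adjusted p = 0.132 to 0.189).

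The remaining lists were called at shares near or below the 2.01% and 1.25% of all regions. Among interferon and antigen presentation genes, *Irf1* was called toward LI (1.52 ± 0.35), at 2 of 98 regions (2.04%). The call was lost without LI 2 (adjusted p = 0.423), pancreas 1 (0.290) or pancreas 2 (0.0965). Among galectin, S100, annexin and actin genes *Lsp1* was called toward LI (1.12 ± 0.28), at 1 of 128 (0.781%), and lost without any 1 of the 4 libraries (adjusted p = 0.127 to 0.254). *Lgals1* did not pass (-0.51 ± 0.27, adjusted p = 0.390). None of 72 regions at 18 circadian clock genes was called by edgeR or by DESeq2, and 8 had an unadjusted p below 0.05, all toward LI. *Ikzf3*, the Aiolos gene, which is also on the AHR list, had 7 regions and none was called. The one of smallest p, in intron 1, held 13.3 and 15.6 CPM in LI and 8.48 and 7.23 CPM in pancreas (0.88 ± 0.24, adjusted p = 0.0615). Of the 7 regions, 6 had log2 fold changes above 0, with a median of 0.81 and a largest value of 1.23. A missed threshold does not show that the tissues were alike.

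Over all lists, 53 members had a region higher in LI and 33 one higher in pancreas. Without LI 1 and pancreas 2, the libraries rich in repeats, the numbers were 12 and 3. The LI genes were then *Ahr*, *Ahrr*, *Kit*, *Runx3*, *Ikzf2*, *Hic1*, *Prdm1*, *Il9*, *Pde4b*, *Epas1*, *Irf1* and *Nfatc2*, and the pancreas genes *Alox5*, *Rara* and *Ramp1*. *Nfatc2* had been called toward pancreas with all 4 libraries, at another region.

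Called regions shared features that their choice had not used. Their median distance to a start site was 25495 bp (higher in LI) and 19363 bp (higher in pancreas), against 10104 bp for regions that were not called. Both sets had fewer promoters, 3.97% and 4.63% against 19.7%, and lower median GC contents, 46.4% and 47.6% against 50.0%, while median widths were 538, 537 and 532 bp.

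Short motifs divided the 2 sets. In the central 500 bases, on either strand, the GATA letters AGATAA occurred in 46.8% of the regions higher in pancreas, 29.0% of those higher in LI and 24.7% of all regions. The ETS letters AGGAAGT occurred in 29.7%, 19.0% and 20.1%. The RUNX letters TGTGGTT stood the other way, in 31.0% of the regions higher in LI, 19.3% of those higher in pancreas and 17.3% of all. So did the ROR letters TAGGTCA (12.1%, 5.59% and 5.01%), the IRF letters AANTGAAA (19.2%, 10.4% and 12.9%) and the T-box letters AGGTGTGA (4.47%, 1.92% and 2.16%). The AP-1 letters TGAGTCA were more frequent than among all regions (18.4%) in both sets, in 29.5% and 23.8%. With promoters left out, GATA stood at 47.1% for pancreas, 29.6% for LI and 28.0% for regions not called, and RUNX at 19.6%, 31.9% and 19.6%. The letters TTGCGTG, which AHR and its partner ARNT bind, were in 2.28% of the regions higher in LI, 0.958% of those higher in pancreas and 2.01% of all regions. These shares describe letters and were not tested over regions.

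SI and lung gave an intestinal tissue and another organ in libraries that had no part in the calls, although the 10 libraries share 1 estimate of spread. Over all regions, 11.1% were higher in SI than in lung and 9.86% higher in lung than in SI. At the regions higher in LI than in pancreas, 536 of 1007 (53.2%) were higher in SI than in lung and 56 (5.56%) higher in lung, with a median log2 fold change (SI minus lung) of 0.96. At the regions higher in pancreas than in LI, 457 of 626 (73.0%) were higher in lung than in SI and 8 (1.28%) higher in SI, with a median of -1.52. At regions not called between LI and pancreas, the shares were 10.4% for SI and 9.14% for lung. The log2 levels of SI and lung were also set against the midpoint of LI and pancreas. At the regions higher in pancreas, lung lay above it at 53.4% and SI at 3.19%. At those higher in LI, SI lay above it at 74.9% and lung at 28.3%. Over all regions the shares were 52.6% for SI and 49.3% for lung. The SI gate did not use ST2 and the lung gate did, so gate and tissue cannot be told apart in this contrast.

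**Figure D5:**
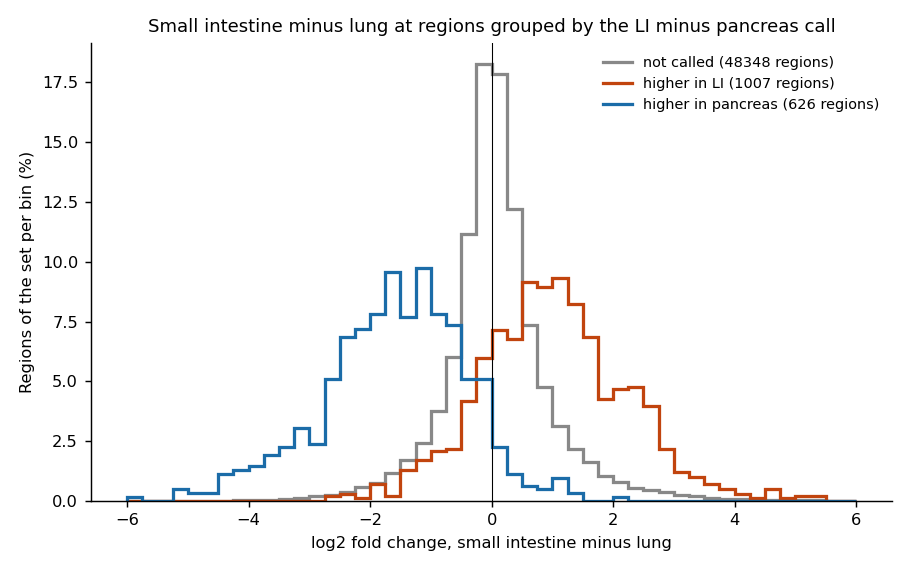
Distribution of the log2 fold change, SI minus lung (horizontal axis, bins of equal width), as the percent of each set of regions per bin (vertical axis), for regions higher in LI (orange), higher in pancreas (blue) and not called (grey). The orange curve has its median at 0.96 and the blue curve at -1.52, on either side of the grey curve around 0.

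The named loci divided along this axis. All 19 *Il1rl1* regions were higher in lung than in SI, and 14 of 16 *Map4k3* regions were higher in SI. *Alox5* was mixed, with 5 of 10 regions higher in lung than in SI. Its intron 3 region with the largest LI to pancreas difference held 2.31 and 2.98 CPM in lung, near SI at 1.49 and 1.15 CPM (-1.01 ± 0.43 for SI minus lung, adjusted p = 0.115). None of the 6 natural killer receptor regions differed between SI and lung. At *Jag1*, 4 of 9 regions were higher in lung than in SI and 6 were higher in LI than in pancreas, but these were not all the same regions. Both calls fell on the region 120289 bp upstream and on one in intron 2.

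Regions near markers of other cells gave the following values in the 4 libraries. For epithelium of the intestine, 5 of 8 genes had a region and edgeR called none of 7 regions. Of these, 3 had an unadjusted p below 0.05, and DESeq2 called 1 toward LI. The summed level was 43.1 and 43.2 CPM in LI and 32.9 and 37.1 CPM in pancreas, with no region at *Cdx1*, *Krt20* or *Hnf4a*. For exocrine and endocrine cells of the pancreas, 4 of 8 genes had a region. None of 8 regions was called by edgeR or DESeq2 or had an unadjusted p below 0.05, and the sums were 61.9 and 55.9 CPM in LI and 55.3 and 49.0 CPM in pancreas, with no region at *Ctrb1*, *Pdx1*, *Amy2a5* or *Ins2*. None of 15 T cell, 7 B and plasma cell and 12 myeloid cell regions was called by edgeR or DESeq2, and 1 T cell and 2 myeloid cell regions had an unadjusted p below 0.05. Of 29 regions at NK cell genes, 3 were higher in LI (1 at *Ifng* and 2 at *Prf1*), with sums of 368 and 373 CPM in LI and 365 and 360 CPM in pancreas and no region at *Klra8*. Of 30 regions at mast cell genes, the 3 of *Kit* were higher in LI, with no region at *Mcpt8*, *Ms4a2* or *Fcer1a*. *Cd93* (endothelium) had 1 region higher in LI, and *Kdr* (endothelium) and *Col1a2* (fibroblasts) 1 each higher in pancreas. The part of other cells in the calls was not tested.

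Repeats and mitochondrial DNA were unevenly spread over the libraries. The 31 regions that match the mitochondrial genome summed to 157493 and 166594 CPM in LI and 121171 and 79559 CPM in pancreas. By edgeR, 8 of them were higher in LI and none in pancreas, with a median log2 fold change of 0.83. DESeq2 called 11 toward LI, and 27 had an unadjusted p below 0.05, all toward LI. Of 1944 tested regions with at least 50% repeat bases, 8 were higher in LI and 12 in pancreas, with a median of -0.11. With the repeat regions left out of the fit, the other 999 LI calls and 614 pancreas calls were all made again.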

How the data were processed

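ATAC-seq libraries of ILC2s from 5 tissues, 2 libraries each, were taken from 1 table of raw read counts per region, deposited by the authors on mm10. The authors aligned reads with Bowtie2 (2.2.9), kept uniquely mapped reads, called peaks per library (MACS2 2.1.1), merged peaks found in both replicates over tissues with HOMER, and counted reads with bedtools. The submitters' processing notes also name FastQC (0.11.9), SAMtools (1.8) and DESeq2. Duplicate removal, blacklisting and the Tn5 shift are not given in the sources used here, and reads without molecular identifiers that are copies of 1 fragment would narrow the spread between counts.

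The raw counts were fitted with edgeR (4.0.16, R 4.3.3): TMM normalization, regions with at least 1 count over the 10 libraries, glmQLFit on tissue over all 10 libraries, and glmQLFTest on the contrast LI minus pancreas, with Benjamini-Hochberg adjustment over all 49981 regions and a threshold of 0.05. The quasi-likelihood fit had 5 residual degrees of freedom per region. The standard error of a log2 fold change is its size divided by the square root of F. Depth, 10282987 to 32797872 counts per library, and 2 libraries a tissue limit the precision. Regions were assigned to the nearest curated RefSeq start site of GRCm38.p6, and a promoter has its centre from 1000 bp upstream to 100 bp downstream of one. Soft-masked bases counted as repeats. Regions like mitochondrial DNA were found with BLAST+ (2.17.0), at 80% identity over at least 100 bases. Motifs were searched in the central 500 bases in place of whole regions, so that all windows had 1 length.

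Named regions were first the 8 with the largest log2 fold change in each direction, 1 per gene, and the 4 largest promoters in each direction. All of these were called, with a mean CPM of at least 2, groups not overlapping and under 50% repeat bases. Next came the 4 genes in each direction with the most called regions and none called in the other direction. Ties were broken by the larger mean log2 fold change. Up to 3 members per direction of each of 15 gene lists, and fixed genes whatever their values, were also named. Other regions at these loci, and the natural killer receptor and ILC3 cytokine genes, were named after their values were seen. The comparison, members, lists and motifs were chosen with earlier results of these data known. Replicate numbers did not pair the libraries (correlation of deviations from the tissue means between -0.173 and 0.152). A few list members are not reported here, though counts over their lists include them. The fit was tested on simulated counts. Alternatives covered normalization, filter, libraries, DESeq2 (1.42.0), a replicate block, GC content and width, repeats, depth, threshold and leaving out libraries. Figures were drawn with matplotlib (3.10.9).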

Additional observations from a re-analysis of the deposited data

How the results depend on the processing

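All 1633 called regions kept their direction in every alternative fit that held them. Where libraries were left out, this could hardly be otherwise, since the CPM of LI and pancreas did not overlap at any called region. Leaving out 1 of the 4 libraries gave 55 to 627 regions higher in LI and 49 to 271 higher in pancreas, with promoters at 1.82% to 4.14% and 3.74% to 6.12% of them. SI was then higher than lung at 52.0% to 72.7% of the LI regions and lung higher than SI at 62.7% to 91.8% of the pancreas regions, and 7 to 44 and 5 to 14 members of the lists had a region called toward LI and toward pancreas. The lowest counts of regions came without pancreas 1. Fits without LI 1 or LI 2, and without pancreas 1 or pancreas 2, take the remaining library of that tissue to vary like the other tissues. With LI 1 and pancreas 2 both left out, an alternative chosen after seeing the data, 150 and 32 regions were called, SI was higher at 69.3% and lung higher at 84.4% of them, and list members numbered 12 and 3. In that fit the *Tnfrsf9* region, which was not called, turned from -0.18 to 0.052 in log2 fold change (adjusted p = 0.995), and the cause was not tested.

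A fit of the 4 libraries alone and another tool called more regions in both directions than the 1007 and 626 of the main fit. edgeR on the 4 libraries called 1466 toward LI and 945 toward pancreas (69 and 51 list members). DESeq2 on the 10 libraries called 1459 and 1029 (68 and 55 list members). The replicate block in the fit of 10 libraries gave 1130 and 667 regions. In the fit of the 4 libraries, also chosen after seeing the data, the replicate block gave 2087 and 1339 regions (88 and 65 list members), and the crossed pairs, LI 1 with pancreas 2, gave 2051 and 1463 (88 and 76 list members). The correlation of same-numbered LI and pancreas libraries was -0.113. An unadjusted p below 0.05 gave 4364 and 3237 regions, with promoters at 6.48% of the LI regions, lung higher than SI at 57.3% of the pancreas regions, and 130 and 118 list members. A promoter window of 1000 bp on both sides put 6.75% of the LI regions at promoters. The other alternatives moved no count by more than 1.5 times. With 2 libraries a tissue, small differences were not detectable at this depth.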

Other observations

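A minority of called regions ran against the contrast of SI and lung, which no library of LI or pancreas enters. There were 56 regions higher in LI than in pancreas but higher in lung than in SI, and 8 with both signs turned. *Plekhg1*, which encodes a guanine nucleotide exchange factor, had 3 of the former in intron 2. The strongest held 36.9 and 42.9 CPM in LI, 6.83 and 7.12 CPM in pancreas, 8.38 and 13.2 CPM in SI and 28.7 and 32.8 CPM in lung, with a log2 fold change of 2.52 ± 0.25 for LI minus pancreas (adjusted p = 0.000111) and of -1.51 for SI minus lung (adjusted p = 0.000293). LI and lung were the open tissues there. Intron 1 of *Il15*, the gene of a cytokine for natural killer cells and other innate lymphocytes, followed the same order, with 8.19 and 9.25 CPM in LI, 2.00 and 2.80 CPM in pancreas, 2.26 and 4.35 CPM in SI and 7.41 and 8.42 CPM in lung. So did intron 1 of *Prlr*, the prolactin receptor gene (2.25 for LI minus pancreas and -2.27 for SI minus lung), intron 4 of *Foxp1*, a forkhead factor gene (1.60 and -1.01), and the region upstream of *Pdcd1* (1.64 and -1.04). The LI minus pancreas call at the strongest *Plekhg1* region held without any 1 of the 4 libraries. That at *Il15* was lost without LI 2 (adjusted p = 0.0859) or pancreas 1 (0.192), that at *Prlr* without LI 2 (adjusted p = 0.0848), pancreas 1 (0.0773) or pancreas 2 (0.109), and that at *Foxp1* without LI 2 (adjusted p = 0.0708) or pancreas 1 (0.116).

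The 8 regions higher in pancreas than in LI but higher in SI than in lung included 2 at *Noxa1*, which encodes an activator of an NADPH oxidase. The one upstream held 10.7 and 8.84 CPM in pancreas, 3.57 and 3.04 CPM in LI, 7.27 and 8.78 CPM in SI and 3.21 and 2.71 CPM in lung (-1.58 for LI minus pancreas and 1.44 for SI minus lung). The call upstream of *Noxa1* was lost without LI 2 (adjusted p = 0.123) or pancreas 1 (0.148). These genes were picked from the 64 such regions after their values were seen, and the difference between the 2 contrasts was not tested.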
